A study of Mus musculus with 6 samples.

Results

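The extracellular matrix genes described here are 49 genes of matrix glycoproteins, laminins and proteoglycans, chosen by symbol from the 55401 genes of an RNA-seq table of cultured mouse retinal progenitor cells. Each of the 49 symbols had 1 row in the table, and 28 of them averaged 0.5 FPKM or more across all 6 libraries and were tested together with all other genes at or above that level (13588 in all). FPKM counts sequenced fragments relative to transcript length and library size, so that levels of different genes can be set side by side. The other 21 genes lay under 0.5 FPKM and were described but not tested.

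The cells were mNRPCs, a line of neural retinal progenitor cells from adult mice. Ifitm3 siRNA libraries (n = 3) came from mNRPCs transfected with an siRNA against Ifitm3, which encodes a membrane protein induced by interferon. Control libraries (n = 3) are taken here as mNRPCs transfected with a control siRNA. The study's methods name the sequenced cells only as mNRPCs and knockdown cells. They do not say whether its blank or its scramble control was sequenced. Both groups grew on dishes coated with Matrigel, a basement membrane extract rich in laminin protein, in medium with N2/B27, bFGF and the GSK3 inhibitor CHIR99021. Collection was about 48 h after transfection by lipofection, for the controls on the same reading. Sequencing of RNA reads what the cells transcribe and not the proteins of the coating. The knockdown was partial and is known here for 1 cell line and 1 siRNA, and nothing in the sources used here says that the replicates were separate cultures, so that p-values cover only how far these libraries vary, a variation that may be technical. In libraries of whole cultures, fewer cells that express a gene and less RNA of it per cell cannot be told apart.

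The matrix around cells is built of a few families. Laminins are trimers of an alpha, a beta and a gamma chain that, linked by nidogen, perlecan and agrin, form the basement membrane, and in the eye they line the inner surface of the retina. Fibronectin, fibrillins and fibulins build fibres and microfibrils that also hold latent TGF-beta. Matricellular proteins such as SPARC, tenascin-C, osteopontin and thrombospondins do not mainly bear load but modulate how cells attach, and proteoglycans carry sugar chains that bind water and growth factors.

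Ifitm3 had 350, 546 and 398 FPKM in the Ifitm3 siRNA libraries, against 3121, 2120 and 2509 FPKM in the control libraries (replicates 1, 2 and 3 in this order here and below). Its level in the knockdown was 16.7% of the control mean and the groups did not overlap, with a log2 fold change of -2.59 (SE 0.23, adjusted p = 0.1001 from limma). An exact permutation test of 3 against 3 libraries gave p = 0.1, the smallest p that this design allows. Over all 13588 genes, 1 gene passed an adjusted p of 0.05, the predicted gene Gm50452, which is no matrix gene. The number of reads per library was unknown. In genes with few reads, the most common step between FPKM values, multiplied by the transcript length in kilobases, was 0.0438 to 0.047 in Ifitm3 siRNA libraries and 0.0394 to 0.045 in control libraries, so that the libraries appear close in depth. This is an approximation, since the values come from base coverage.

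The replicate 2 libraries of both groups stood apart from the others. The first principal component, with 37.1% of the variance of all tested genes, placed them at 47.6 (Ifitm3 siRNA) and 32.0 (control), and the other 4 libraries between -33.1 and 0.15. The groups separated on the second component (22.3%). Of the retinal progenitor markers, Pax6 (means 10.8 FPKM in Ifitm3 siRNA and 11.9 FPKM in control libraries), Six3, Sox2, Nes and Mki67 were expressed, while Rax and Six6 were at 0 in all 6 libraries. Among 12 mesenchymal markers, 9 reached 0.5 FPKM, including Twist1 (27.1 FPKM in Ifitm3 siRNA and 29.3 FPKM in control libraries) and Col3a1 (118 and 145 FPKM in the same order), with Col1a1 and Thy1 under 0.5 FPKM. Their summed level was 1623 to 2898 FPKM in Ifitm3 siRNA libraries and 2119 to 3343 FPKM in control libraries, most of it S100a4, and Prrx1 was the 1 mesenchymal marker with an unadjusted p under 0.05 (log2 fold change 0.53, unadjusted p = 0.0112 and adjusted p = 0.475 from limma). The 10 markers of Mueller glia and astrocytes summed to 429 to 666 FPKM in Ifitm3 siRNA libraries and 607 to 738 FPKM in control libraries, most of it Vim, while Rlbp1 and Slc1a3 did not exceed 0.11 and 0.14 FPKM in any library. Of these 10 markers, 4 were tested and 0 had an unadjusted p under 0.05 (Apoe came nearest, with a log2 fold change of 0.69 and an unadjusted p = 0.0512). Sums of the endothelial markers did not exceed 0.38 FPKM, those of photoreceptors and retinal neurons 0.5 FPKM, those of pericytes and smooth muscle 1.58 FPKM, those of the pigment epithelium 1.2 FPKM and those of microglia 1.57 FPKM in any library. The part of these markers in the results below was not tested.

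Across the matrix genes, Sparc, Ltbp1 and Ogn were lower in the Ifitm3 siRNA libraries at an unadjusted threshold only, and no matrix gene was higher at it. At an unadjusted p of 0.05, 3 of the 28 tested genes (10.7%) were lower, against 3.37% of all genes tested, and 0 of 28 were higher, against 5.32% of all genes. Over all genes this split depended on the scaling, with 4.33% lower and 4.08% higher after median-ratio scaling and 4.45% lower and 3.78% higher after quantile normalization, under which 3 and 2 matrix genes were lower and 0 were higher. Counted in either direction on the deposited FPKM, the 10.7% of the 28 lay near the lower and higher shares of all genes added up. At the thresholds that the study states, an absolute log2 fold change over 1 and an unadjusted p under 0.05, Ogn alone of the 28 was lower (3.57%, against 0.5% of all genes) and 0 were higher (0.927% of all genes). At an adjusted p of 0.05 over all genes, 0 were lower (0.00736% of all genes) and 0 were higher (0% of all genes). Fold changes were below 0 for 17 and above 0 for 11 of the 28, with a median log2 fold change of -0.13, beside 0.04 for all genes tested. The matrix genes were chosen with earlier results of these data known. Their shares beside those of all genes, here and below, are therefore a description and no test.

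In 4 of the 28 genes (14.3%) all Ifitm3 siRNA libraries lay below all control libraries, against 5.69% of all genes tested, and these were Sparc, Ltbp1, Fbln2 and Lamc1. In 0 of 28 they lay above, against 9.96% of all genes. In either direction 15.6% of all genes did not overlap, near the 14.3% of the 28. These counts use the deposited FPKM and were not made after median-ratio scaling or quantile normalization. The difference of the means exceeded the range within both groups for 2 genes, Sparc and Ltbp1, on the log2 scale. Ltbp1 did so by a small margin, with a difference of -0.390 and a range of 0.385 among the controls. This was counted for the 28 genes only, so that no share of all genes stands beside it.

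**Figure D1:**
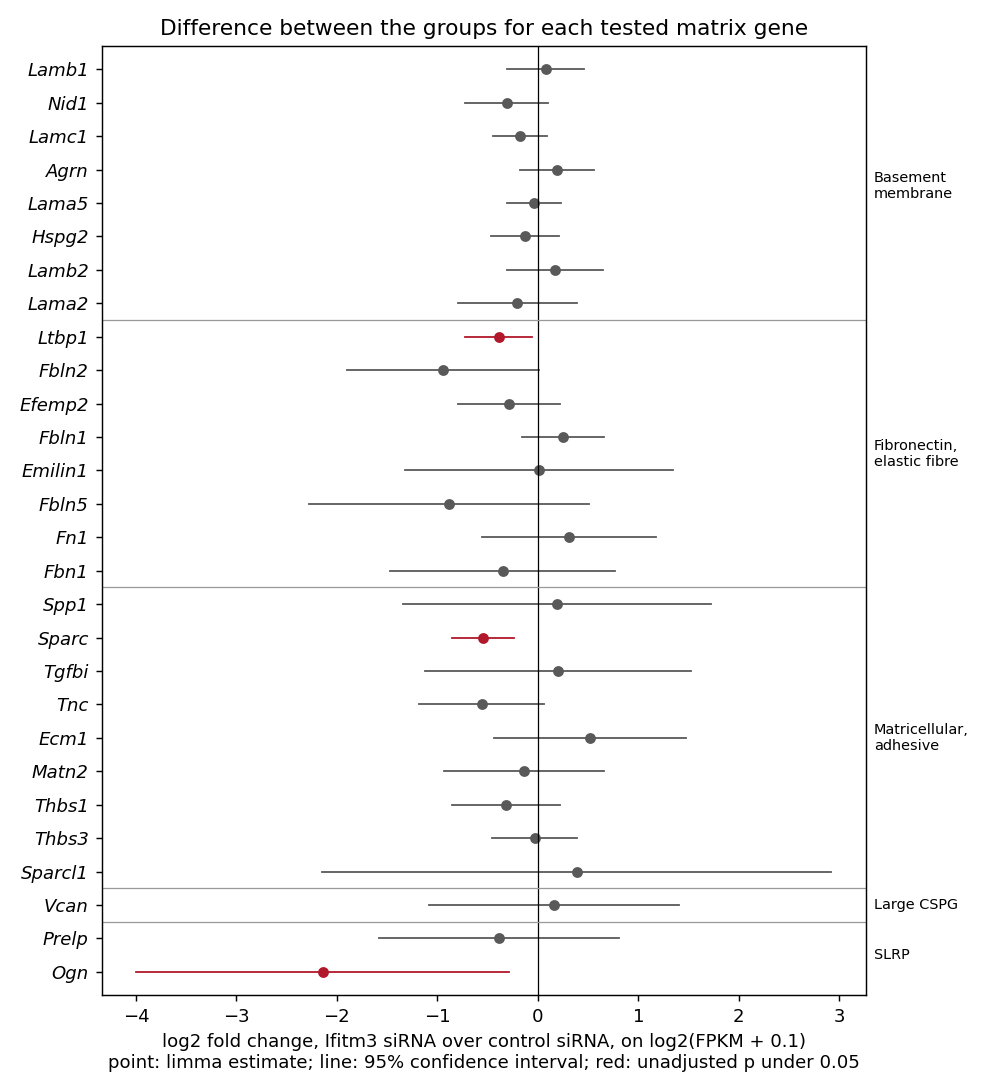
Log2 fold change of the 28 tested matrix genes, Ifitm3 siRNA over control siRNA, from limma on log2(FPKM + 0.1), with 95% confidence intervals and n = 3 libraries per group. Sparc, Ltbp1 and Ogn, in red, have intervals below 0, and the interval of Sparcl1, from -2.15 to 2.92, is the widest of the 28.

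Sparc encodes osteonectin, a collagen-binding matricellular protein. It had 316, 324 and 327 FPKM in the Ifitm3 siRNA libraries, against 471, 517 and 429 FPKM in the control libraries. The knockdown libraries lay close together and all under the lowest control, and their mean of 322 ± 5.51 FPKM was 68.3% of the control mean of 472 ± 44.2 FPKM (SD, n = 3 each). The log2 fold change was -0.55 (SE 0.13, 95% interval -0.86 to -0.23), with an unadjusted p of 0.00458 and an adjusted p of 0.439 from limma. Sparc kept an unadjusted p under 0.05 in 15 of 15 alternative settings, with fold changes from -0.61 to -0.48 and adjusted p between 0.326 and 0.92, and its log2 fold change was -0.48 without both replicate 2 libraries.

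Sparc lies on the minus strand of chr11:55394500-55423183 (GRCm38, GENCODE vM21). The promoters of the genes that were lower at the unadjusted threshold are shown so that their sequence can be read beside the values. The RefSeq window for Sparc, 250 bases before to 50 bases after its start (chr11:55420031-55420330, minus strand, GRCm38.p6), lies inside the GENCODE gene, so that the annotated starts differ. Capitals in the promoters mark matches on either strand to 4 motifs, the TATA box TATAAA, the CCAAT box CCAAT, the GC box GGGCGG and the AP-1 site TGANTCA, and the Sparc window holds none of these letters.
Sparc promoter: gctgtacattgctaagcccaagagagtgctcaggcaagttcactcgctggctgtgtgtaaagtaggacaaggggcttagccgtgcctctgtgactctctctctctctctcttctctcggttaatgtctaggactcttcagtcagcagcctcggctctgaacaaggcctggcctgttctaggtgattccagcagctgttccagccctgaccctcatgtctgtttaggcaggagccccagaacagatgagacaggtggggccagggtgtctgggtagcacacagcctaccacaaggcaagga

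Of all 32851 RefSeq promoter windows of this length, 13.6% hold TATAAA, 37.4% CCAAT, 35.7% GGGCGG and 7.81% TGANTCA. A window was at hand for 36 of the 49 matrix genes, 23 of them tested. Of these 23, 4 had TATAAA, 9 CCAAT, 16 GGGCGG and 1 TGANTCA in at least 1 window. A match describes letters and is no evidence of binding. Several genes have more than 1 window, so that these counts per gene cannot be set against the shares per window.

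Among the other matricellular and adhesive genes, Spp1 was the most abundant matrix gene of the culture. Spp1, which encodes osteopontin, a secreted ligand of integrins and CD44, had 1586, 6376 and 2626 FPKM in Ifitm3 siRNA libraries, against 2132, 5486 and 1524 FPKM in control libraries. The groups overlapped across their range, with replicate 2 the highest of each group, and the log2 fold change of 0.19 had an interval from -1.34 to 1.72 (limma adjusted p = 0.946). Tgfbi, an integrin ligand induced by TGF-beta, had 60.4, 246 and 115 FPKM in Ifitm3 siRNA libraries, against 101, 169 and 65.8 FPKM in control libraries. Its groups also overlapped with replicate 2 highest in each (log2 fold change 0.20, interval -1.12 to 1.52, limma adjusted p = 0.933). Spp1 and Tgfbi turned to -0.36 and -0.32 on the log2 scale when Ifitm3 siRNA replicate 2 was left out, and to -0.20 and -0.13 without control replicate 3.

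Tnc encodes tenascin-C, a hexameric glycoprotein of developing and injured tissue that modulates adhesion to fibronectin. The study names it among genes of proliferation and metabolism whose expression it reports as significantly changed. Tnc had 105, 54.7 and 73.3 FPKM in the Ifitm3 siRNA libraries, against 134, 95.5 and 105 FPKM in the control libraries. Ifitm3 siRNA replicates 2 and 3 lay under all controls, but the groups overlapped, since Ifitm3 siRNA replicate 1 lay between the control libraries. The mean was 77.6 ± 25.4 FPKM in Ifitm3 siRNA libraries and 112 ± 20.2 FPKM in control libraries (SD, n = 3 each), a log2 fold change of -0.56 (SE 0.26, interval -1.18 to 0.06, limma unadjusted p = 0.0695, adjusted p = 0.598). It did not pass the threshold, and it passed at an unadjusted p of 0.0109 without Ifitm3 siRNA replicate 1 (log2 fold change -0.80).

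Ecm1, a secreted glycoprotein of skin and vessel matrix, had 45.8, 78.0 and 56.5 FPKM in Ifitm3 siRNA libraries, against 30.3, 76.4 and 29.5 FPKM in control libraries. Control replicate 2 overlapped the knockdown libraries, and the log2 fold change of 0.52 (interval -0.44 to 1.48) did not pass (limma unadjusted p = 0.237, adjusted p = 0.727). Without control replicate 2 the log2 fold change was 0.97 (unadjusted p = 0.0067, adjusted p = 0.332), and without both replicate 2 libraries it was 0.77 (unadjusted p = 0.00436, adjusted p = 0.319), so that its call turns on these libraries. Over all 15 alternatives its adjusted p ranged from 0.319 to 0.972. Thbs1, which activates latent TGF-beta and binds CD36 and CD47, averaged 22.1 ± 2.55 FPKM in Ifitm3 siRNA libraries and 28.2 ± 8.34 FPKM in control libraries (log2 fold change -0.32, limma adjusted p = 0.709). The remaining tested genes of this family, Matn2, Thbs3 and Sparcl1, had log2 fold changes of -0.13, -0.03 and 0.39 (adjusted limma p from 0.923 to 0.966). Thbs2 lay under the filter at 0.11, 0.37 and 0.16 FPKM in Ifitm3 siRNA libraries, against 0.04, 0.07 and 0.04 FPKM in control libraries. Of the 13 matricellular and adhesive genes, 9 were tested. At an unadjusted p of 0.05, 1 of the 9 was lower (Sparc, 11.1%, against 3.37% of all genes tested) and 0 were higher (against 5.32%).

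**Figure D2:**
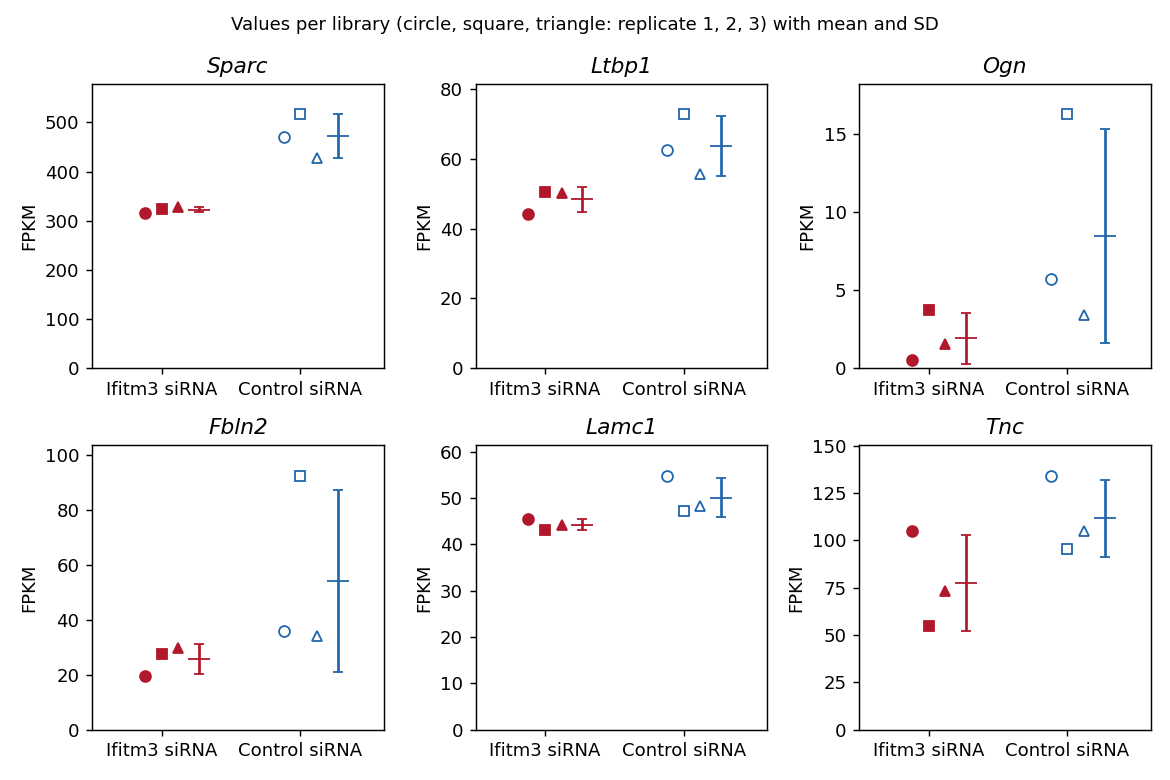
FPKM per library, from 0, of Sparc, Ltbp1, Ogn, Fbln2, Lamc1 and Tnc in Ifitm3 siRNA and control siRNA libraries, with circles, squares and triangles for replicates 1, 2 and 3 and bars for mean and SD (n = 3 each). The groups do not overlap in Sparc, Ltbp1, Fbln2 and Lamc1, while in Ogn Ifitm3 siRNA replicate 2 (3.71 FPKM) lies above control replicate 3 (3.42 FPKM).

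In the family of fibronectin, fibrillins, fibulins and elastic fibre genes, Ltbp1 was lower at the unadjusted threshold. It encodes a protein that holds latent TGF-beta on microfibrils. Ltbp1 had 44.3, 50.5 and 50.3 FPKM in the Ifitm3 siRNA libraries, against 62.5, 72.8 and 55.7 FPKM in the control libraries. All knockdown libraries lay under the lowest control, with a mean of 48.3 ± 3.53 FPKM against 63.6 ± 8.60 FPKM in control libraries (SD, n = 3 each). The log2 fold change was -0.39 (SE 0.14, interval -0.72 to -0.06, limma unadjusted p = 0.0284, adjusted p = 0.537). Its unadjusted p stayed under 0.05 in 9 of 15 alternatives. It was 0.0517 after quantile normalization and 0.066 without both replicate 2 libraries. With Ifitm3 siRNA replicate 1 or 3 or control replicate 1 or 2 left out it lay between 0.0533 and 0.0865, with log2 fold changes of -0.33, -0.42, -0.40 and -0.29 in this order.

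Ltbp1 lies on the plus strand of chr17:75005568-75392512. The window at its upstream RefSeq start (chr17:75005279-75005578, plus strand, GRCm38.p6) holds 3 CCAAT matches, beginning 148, 92 and 53 bases before the start, and 37.4% of all windows hold at least 1.
Ltbp1 promoter: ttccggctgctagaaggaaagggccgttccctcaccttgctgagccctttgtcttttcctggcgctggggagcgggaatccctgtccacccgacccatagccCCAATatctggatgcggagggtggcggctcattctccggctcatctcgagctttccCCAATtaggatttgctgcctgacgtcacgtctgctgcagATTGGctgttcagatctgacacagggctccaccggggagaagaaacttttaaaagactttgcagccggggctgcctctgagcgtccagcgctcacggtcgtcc

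Fbln2, a fibulin that links elastic fibres and basement membranes, had 19.4, 27.7 and 29.8 FPKM in Ifitm3 siRNA libraries, against 35.9, 92.5 and 34.3 FPKM in control libraries. The groups did not overlap, but control replicate 2 was far above the other 2 controls, and the log2 fold change of -0.94 (SE 0.40, interval -1.90 to 0.02) did not pass (limma unadjusted p = 0.0529, adjusted p = 0.583). Without both replicate 2 libraries it was -0.54 (unadjusted p = 0.0707, adjusted p = 0.504). It passed without control replicate 1 (log2 fold change -1.16, unadjusted p = 0.0418, adjusted p = 0.92) and without control replicate 3 (-1.19, unadjusted p = 0.0309, adjusted p = 0.823), and its adjusted p ranged from 0.377 to 0.92 over the 15 alternatives.

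Fn1, the fibronectin gene, was low in this culture, with 0.86, 2.16 and 1.65 FPKM in Ifitm3 siRNA libraries, against 1.18, 1.48 and 0.88 FPKM in control libraries. Per length, Tnc exceeded Fn1 by 25.3 to 122 times in Ifitm3 siRNA libraries and by 64.5 to 119 times in control libraries. The groups of Fn1 overlapped (log2 fold change 0.31, interval -0.55 to 1.18). Fbln1, Fbln5, Efemp2, Emilin1 and Fbn1, all of fibulins or microfibrils, had log2 fold changes of 0.25, -0.88, -0.29, 0.01 and -0.35 (adjusted limma p from 0.691 to 0.996). Elastin itself (Eln) did not exceed 0.01 FPKM in any library. Of the 12 genes of the family, 8 were tested. Of these 8, 1 was lower (12.5%, against 3.37% of all genes tested) and 0 were higher (against 5.32%), and their median log2 fold change was -0.32, beside 0.04 for all genes. The summed level of the 12 genes was 101, 124 and 138 FPKM in Ifitm3 siRNA libraries, against 158, 207 and 142 FPKM in control libraries, most of it Ltbp1, Fbln2 and Efemp2.

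Among the small leucine-rich proteoglycans, Ogn and Prelp were expressed and Dcn, Bgn, Lum and Fmod were not above 0.5 FPKM in any library. Ogn, which encodes osteoglycin (mimecan), a protein known from cornea and bone that shapes collagen fibrils, had 0.53, 3.71 and 1.54 FPKM in Ifitm3 siRNA libraries, against 5.75, 16.3 and 3.42 FPKM in control libraries. Ifitm3 siRNA replicates 1 and 3 lay under all controls, yet the groups overlapped because Ifitm3 siRNA replicate 2 lay above control replicate 3. Its mean of 1.93 ± 1.62 FPKM in Ifitm3 siRNA libraries was 22.7% of the control mean of 8.49 ± 6.86 FPKM (SD, n = 3 each). The log2 fold change was -2.14 (SE 0.78, interval -4.00 to -0.29, limma unadjusted p = 0.0296, adjusted p = 0.542), and -2.16 (unadjusted p = 0.0127, adjusted p = 0.398) without both replicate 2 libraries. Its adjusted p ranged from 0.326 to 0.92 over the 15 alternatives. Ogn no longer passed the unadjusted threshold, at 0.0535 to 0.0858, when Ifitm3 siRNA replicate 1 or 3 or control replicate 1 or 2 was left out, with log2 fold changes of -1.48, -2.17, -2.27 and -1.52 in this order.

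Ogn lies on the plus strand of chr13:49608046-49624501 and overlaps Cenpp on the other strand, which averaged 2.80 FPKM. Its neighbours in the same proteoglycan cluster, Ecm2, Aspn and Omd, did not exceed 0.07 FPKM in any library. The RefSeq window of Ogn (chr13:49607765-49608064, plus strand, GRCm38.p6) holds 2 overlapping TATAAA matches, 1 on each strand, beginning 229 and 227 bases before the start and so far upstream of it.
Ogn promoter: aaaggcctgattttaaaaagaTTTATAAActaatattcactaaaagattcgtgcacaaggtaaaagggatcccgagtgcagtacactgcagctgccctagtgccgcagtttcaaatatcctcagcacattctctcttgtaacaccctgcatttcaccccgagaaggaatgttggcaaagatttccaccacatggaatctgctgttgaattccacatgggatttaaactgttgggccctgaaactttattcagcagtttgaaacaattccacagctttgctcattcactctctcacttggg

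Prelp, which anchors basement membranes to connective tissue, had 25.0, 83.2 and 53.1 FPKM in Ifitm3 siRNA libraries, against 55.7, 104 and 42.4 FPKM in control libraries. The groups overlapped, replicate 2 was highest in each, and the log2 fold change of -0.39 had an interval from -1.58 to 0.81 (limma adjusted p = 0.839). Per length, Prelp exceeded Ogn by 22.4 to 47.1 times in Ifitm3 siRNA libraries and by 6.41 to 12.4 times in control libraries. Fmod, next to Prelp on chromosome 1, did not exceed 0.03 FPKM.

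An siRNA can also lower transcripts that pair with the seed of its antisense strand, bases 2 to 8. The antisense strands of the Ifitm3 siRNA and of the scramble siRNA that the study lists are shown with the seed in capitals. The 3' UTRs of the matrix genes were searched for the complement of the Ifitm3 siRNA seed, ATCAACA.
Ifitm3 siRNA antisense: aUGUUGAUcacaguaguuc
Scramble siRNA antisense: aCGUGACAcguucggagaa

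Of the 28 tested genes, 2 (7.14%) held ATCAACA in their longest annotated 3' UTR, beside 6.77% of the 11160 tested genes with an annotated 3' UTR, a share near the background. These were Ogn, with the site at base 1484 of a 3' UTR of 1518 bases, and Tnc, with the site at base 66 of 648. Sparc and Ltbp1 held none. The sites are shown with their flanks, the match in capitals, and whether the siRNA acts on them was not tested.
Ogn site: aatcttgaataaATCAACAgaaataaagcg
Tnc site: ttttaccaaagcATCAACAcaaccagtcta

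The basement membrane genes held no gene that passed the unadjusted threshold. Lamc1, the gamma chain shared by most laminins, had 45.5, 43.1 and 44.3 FPKM in Ifitm3 siRNA libraries, against 54.9, 47.1 and 48.3 FPKM in control libraries. The groups did not overlap, but the difference was small, with a log2 fold change of -0.18 (SE 0.11, interval -0.45 to 0.10, limma unadjusted p = 0.169, adjusted p = 0.685). Lamb1, a beta chain, had 59.9, 62.0 and 64.6 FPKM in Ifitm3 siRNA libraries, against 49.6, 72.6 and 56.6 FPKM in control libraries. The knockdown libraries lay inside the range of the controls (log2 fold change 0.08, interval -0.31 to 0.46). Nid1, which bridges laminin and collagen IV, had 39.2, 44.4 and 43.2 FPKM in Ifitm3 siRNA libraries, against 48.7, 66.4 and 44.3 FPKM in control libraries. Its groups overlapped by a small margin, at Ifitm3 siRNA replicate 2 (44.38 FPKM) and control replicate 3 (44.34 FPKM), and the log2 fold change of -0.31 did not pass (limma adjusted p = 0.637).

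Agrn, the heparan sulfate proteoglycan agrin, had 41.1, 39.1 and 46.1 FPKM in Ifitm3 siRNA libraries, against 43.5, 36.7 and 31.4 FPKM in control libraries, with overlap (log2 fold change 0.19, limma adjusted p = 0.739). Lama5 held 34.2 ± 0.581 FPKM in Ifitm3 siRNA libraries and 35.1 ± 2.87 FPKM in control libraries, with a log2 fold change of -0.04 and an interval from -0.30 to 0.23. Hspg2 (perlecan), Lamb2 and Lama2 had log2 fold changes of -0.13, 0.17 and -0.20 (adjusted limma p from 0.809 to 0.828). At an unadjusted p of 0.05, 0 of the 8 tested basement membrane genes were lower and 0 were higher (against 3.37% and 5.32% of all genes tested), and their median log2 fold change was -0.08, beside 0.04 for all genes. The summed level of the 11 genes of the family was 276, 265 and 283 FPKM in Ifitm3 siRNA libraries, against 294, 301 and 267 FPKM in control libraries.

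Within the alpha and within the beta chains, the order of the laminin genes was the same in all 6 libraries. Per length, Lama5 exceeded Lama2 by 3.44 to 4.82 times in Ifitm3 siRNA libraries and by 2.90 to 4.72 times in control libraries, while Lama4 did not exceed 0.58 FPKM and Lama1 0.02 FPKM in any library. Lamb1 exceeded Lamb2 by 3.93 to 5.61 times in Ifitm3 siRNA libraries and by 3.33 to 7.20 times in control libraries. The second nidogen, Nid2, did not exceed 0.03 FPKM.

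Of the large chondroitin sulfate proteoglycans and testicans, Vcan alone was tested. Vcan, which encodes versican, a hyaluronan-binding proteoglycan of loose and embryonic matrix, averaged 14.4 ± 7.81 FPKM in Ifitm3 siRNA libraries and 13.6 ± 9.29 FPKM in control libraries (SD, n = 3 each). Replicate 2 held the highest value of each group, 23.5 FPKM in Ifitm3 siRNA and 24.3 FPKM in control libraries, and the log2 fold change of 0.16 (interval -1.09 to 1.41) turned to -0.25 without Ifitm3 siRNA replicate 2, to -0.15 without control replicate 1 and to -0.05 without control replicate 3. Acan, the aggrecan gene, was listed at 0 in all 6 libraries. The brain proteoglycans Bcan and Ncan did not exceed 0.06 and 0.15 FPKM, and the testicans Spock1 and Spock2 did not exceed 0.06 and 0.26 FPKM.

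Levels of the 49 genes spanned a wide range, from 0 to that of Spp1. A mean of at least 100 FPKM was reached by 3 genes (Spp1, Sparc and Tgfbi), 17 lay between 10 and 100 FPKM, 7 between 1 and 10 FPKM, and 1, Fbn1, between 0.5 and 1 FPKM. The 21 others divide into 6 between 0.1 and 0.5 FPKM (Lama4, Dcn, Postn, Efemp1, Thbs2 and Spock2) and 15 under 0.1 FPKM (Mgp, Ncan, Bgn, Bcan, Fmod, Spock1, Nid2, Vtn, Cspg4, Ltbp2, Eln, Lum, Lama1, Fbn2 and Acan). Mgp, an inhibitor of calcification, had 0, 0 and 0.05 FPKM in Ifitm3 siRNA libraries, against 0.24, 0.08 and 0.19 FPKM in control libraries. The groups of Mgp and of Thbs2 did not overlap, but values this low rest on few fragments, and no fold is given for them.

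**Figure D3:**
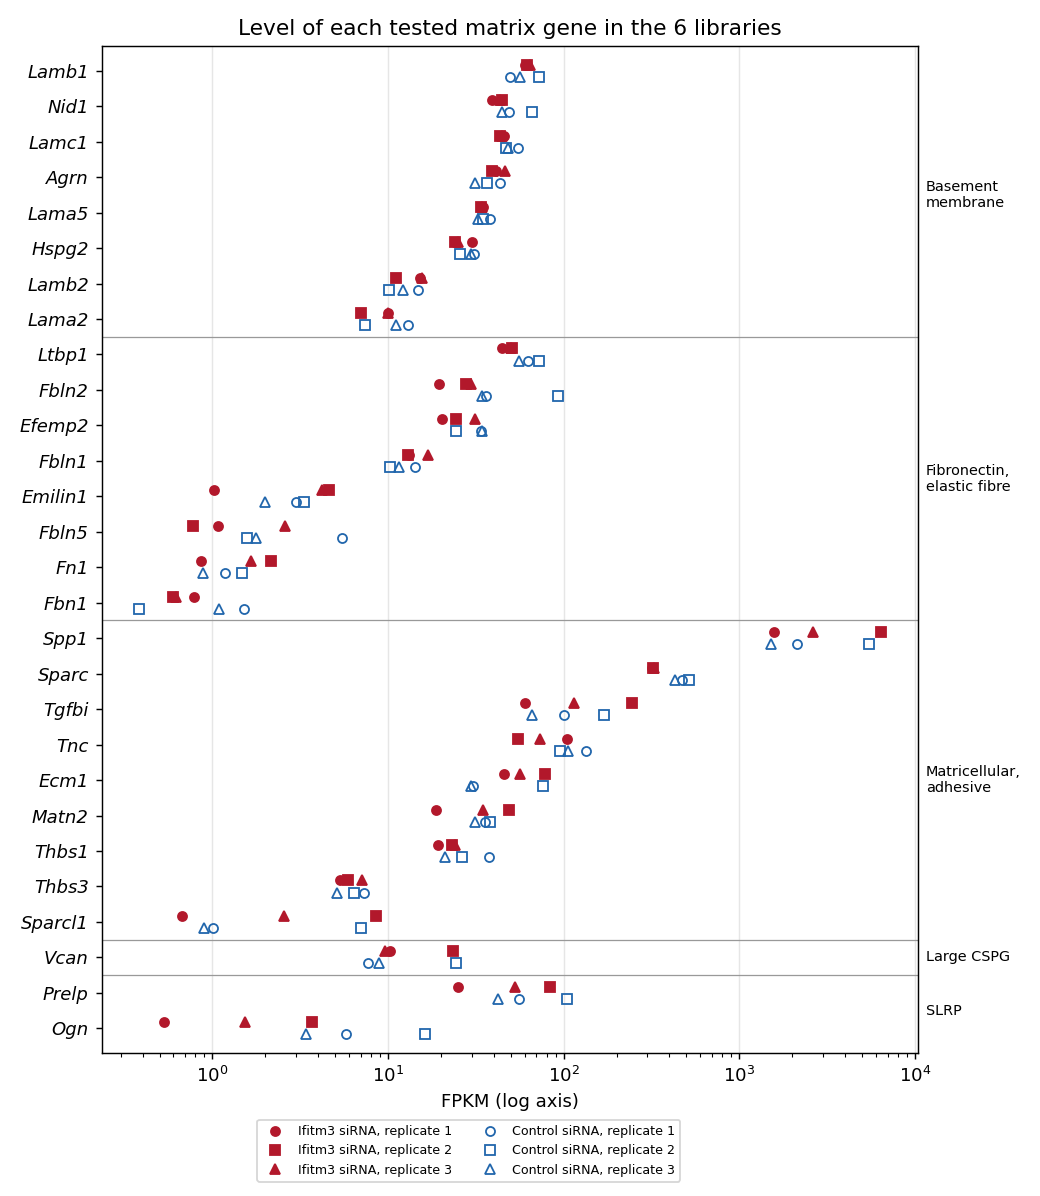
FPKM (log axis) of the 28 tested matrix genes in the 3 Ifitm3 siRNA libraries (filled, red) and the 3 control libraries (open, blue), by family, with circles, squares and triangles for replicates 1, 2 and 3. Spp1 lies highest, between 1524 and 6376 FPKM, and the squares of replicate 2 lie to the right of the other replicates of their group in 12 of the 28 genes in both groups.

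The replicate 2 libraries differed from the others in many matrix genes and in both groups. In 12 of the 28 genes (42.9%, beside 21.4% of all genes tested) replicate 2 was the highest library of both groups, and these were Sparcl1, Spp1, Fn1, Emilin1, Nid1, Vcan, Ogn, Prelp, Ltbp1, Matn2, Tgfbi and Ecm1. In 8 (28.6%, beside 25.6% of all genes) it was the lowest of both groups, namely Tnc, Fbn1, Fbln1, Fbln5, Lama2, Lamb2, Lamc1 and Hspg2. Sparcl1, a relative of Sparc made by glia and vessels, showed it most, with 0.67, 8.56 and 2.54 FPKM in Ifitm3 siRNA libraries, against 1.01, 7.00 and 0.90 FPKM in control libraries. Across the 28 genes the deviation of replicate 2 from the mean of replicates 1 and 3 in the Ifitm3 siRNA libraries correlated with that in the control libraries (Pearson's r = 0.86, Spearman's rho = 0.90). This is a description across genes, which are not independent replicates, and what the replicate 2 libraries share was not tested.

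**Figure D4:**
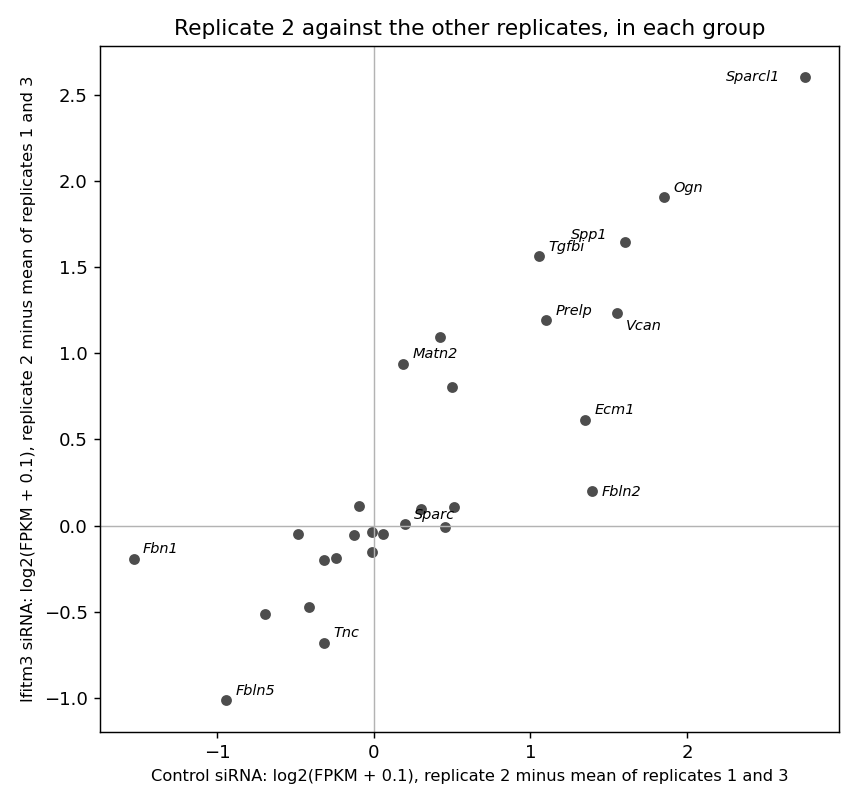
Deviation of replicate 2 from the mean of replicates 1 and 3 on log2(FPKM + 0.1), in Ifitm3 siRNA (vertical) and control siRNA libraries (horizontal), for the 28 tested matrix genes (points). Most points lie near a rising line (r = 0.86), with Sparcl1 at its upper end, and Fbln2 lies to the right of it because it was high in control replicate 2 alone.

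The summed level of the 49 genes was led by Spp1 and was highest in replicate 2 of each group. It was 2571, 7666 and 3752 FPKM in Ifitm3 siRNA libraries, against 3472, 7076 and 2675 FPKM in control libraries. Without Spp1, the sum was 985, 1289 and 1126 FPKM in Ifitm3 siRNA libraries, against 1340, 1590 and 1151 FPKM in control libraries. The groups then still overlapped, with Ifitm3 siRNA replicate 2 above control replicate 3.

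Genes related to the 49 were read from 4 further lists, of which 79 genes were tested. Of 18 tested other matrix glycoproteins, 1 was lower (5.56%, against 3.37% of all genes tested) and 1 was higher (5.56%, against 5.32%) at an unadjusted p of 0.05. Sned1, which encodes a secreted protein with fibronectin type III domains, had 0.49, 0.73 and 0.84 FPKM in Ifitm3 siRNA libraries, against 4.58, 1.96 and 2.23 FPKM in control libraries, without overlap (log2 fold change -1.87, limma unadjusted p = 0.00152, adjusted p = 0.363). Vwa1, a protein that binds perlecan, was higher at 0.94, 0.94 and 1.52 FPKM in Ifitm3 siRNA libraries, against 0.60, 0.39 and 0.53 FPKM in control libraries (log2 fold change 1.01, unadjusted p = 0.0129, adjusted p = 0.489). Tnr, the gene of tenascin-R, did not pass (log2 fold change -0.93, unadjusted p = 0.0605, adjusted p = 0.593). Of 11 tested other proteoglycans and link proteins, 0 were lower and 0 were higher (against 3.37% and 5.32% of all genes tested), and the smallest p values were those of the glypicans Gpc4 (log2 fold change -0.61, adjusted p = 0.636) and Gpc6 (-0.38, adjusted p = 0.638) and of the link protein gene Hapln4 (0.53, adjusted p = 0.664).

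Of 19 tested matrix receptors, 1 was lower (5.26%, against 3.37% of all genes tested) and 1 was higher (5.26%, against 5.32%), shares near those of all genes. Itga5, the alpha chain of the fibronectin receptor, had 45.5, 44.0 and 39.9 FPKM in Ifitm3 siRNA libraries, against 28.0, 29.6 and 27.8 FPKM in control libraries. All knockdown libraries lay above all controls, with a log2 fold change of 0.60 (SE 0.11, limma unadjusted p = 0.00114, adjusted p = 0.363). Itga7, the alpha chain of a laminin receptor, had 39.0, 31.9 and 30.2 FPKM in Ifitm3 siRNA libraries, against 41.9, 50.2 and 39.8 FPKM in control libraries, again without overlap (log2 fold change -0.38, unadjusted p = 0.0419, adjusted p = 0.57). Bcam, which binds laminin alpha 5, did not pass (log2 fold change 0.89, unadjusted p = 0.052, adjusted p = 0.58). Of 31 tested genes for proteoglycan sugar chains and hyaluronan, 0 were lower (against 3.37% of all genes tested) and 1 was higher (3.23%, against 5.32%), the heparan sulfate 6-O-sulfotransferase Hs6st1 (log2 fold change 0.38, unadjusted p = 0.0176, adjusted p = 0.507). The next smallest p values were those of Dsel (log2 fold change -0.64, adjusted p = 0.583) and Hs6st2 (-0.47, adjusted p = 0.598).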

How the data were processed

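The authors sequenced RNA of mNRPCs transfected with an siRNA against Ifitm3 (3 libraries) and of control mNRPCs (3 libraries). The controls are taken as transfected with a control siRNA. Libraries were from poly(A) RNA, strand-specific and paired-end. The deposited values are FPKM per gene, which the authors gave with 2 decimals. The submitters' notes list StringTie 1.3.4d, HISAT2 2.0.4, cutadapt 1.9 and the human build hg18, although 99.5% of the identifiers are in the mouse annotation GENCODE vM21, which was used here for positions and 3' UTRs. Read totals were unknown, so that no counting error or test on counts is given.

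Genes averaging 0.5 FPKM or more were compared on log2(FPKM + 0.1) with limma 3.58.1 in R 4.3.3 (two-sided, condition only, moderated with a trend), and p-values were adjusted by Benjamini-Hochberg over all 13588 genes. Fold changes on this scale understate the change of low genes. The fit was tested on simulated data first. The tables were made in Python 3.11.15. All 49 members are accounted for, with values per library for those past a threshold, the 12 most abundant, those without overlap, and Tnc. Other members given per library (Fn1, Sparcl1, Thbs2 and Mgp), and Gm50452, were chosen after their values were seen. Up to 3 genes of each related list with the smallest p are named. The members and lists were chosen with earlier results of these data known. Alternatives were other pseudocounts (1 and 0.01), no filter or a mean of 2 FPKM, median-ratio and quantile scaling, no trend, a replicate block and libraries left out. Promoters, from RefSeq (GRCm38.p6), and siRNA sequences, from the study's supplement, were matched by symbol and name.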

Additional observations from a re-analysis of the deposited data

How the results depend on the processing

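Of the 28 tested matrix genes, Sparc stayed lower at an unadjusted p of 0.05 under all 15 alternatives, and at an adjusted p of 0.05 the count of matrix genes was 0 in each (limma). The count of genes lower at the unadjusted threshold was 3, and 5 with the replicate block (Fbln2, Ltbp1, Ogn, Sparc and Tnc, against 4.68% of all genes), 4 without a filter (Mgp added, 2.29%), 2 with quantile normalization (4.45%) and 2 without both replicate 2 libraries (4.36%), and it ranged from 1 to 4 when 1 library was left out (1.78% to 4.40%). The count of higher genes was 0, and 1 without a filter on low values (Thbs2, against 4.10% of all genes), with the replicate block (Ecm1, 7.37%) and without both replicate 2 libraries (Ecm1, 5.93%), and it ranged from 0 to 1 when 1 library was left out (3.52% to 6.50%). At the study's thresholds the count was 1 (Ogn, lower), against 0.5% of all genes lower and 0.927% higher. It was 2 without a filter, and it ranged from 0 to 2 when 1 library was left out. Shares of all genes at these thresholds were not worked out for the alternatives, so that these counts are not compared. Genes without overlap numbered 4 (15.6% of all genes in either direction), from 5 to 11 when 1 library was left out (21.5% to 33.2% of all genes), and 14 without both replicate 2 libraries (44.7% of all genes). The median log2 fold change ranged from -0.30 to 0.0066 when 1 library was left out, the highest without Ifitm3 siRNA replicate 1. The cause was not tested. The log2 fold change of Ifitm3 ranged from -2.91 to -2.44 over the 15 alternatives (limma adjusted p from 0.0708 to 0.51).

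The fold change of Emilin1 reversed with a pseudocount of 0.01 (-0.0031), median-ratio scaling (-0.028), quantile normalization (-0.037) and without both replicate 2 libraries (-0.22), that of Thbs3 without both replicate 2 libraries (0.0038), and the median of all genes with quantile normalization (-0.00038). With 1 library left out, log2 fold changes that changed sign ranged from -0.36 to 0.68 in Emilin1, -0.86 to 0.018 in Fbn1, -0.093 to 0.024 in Lama5, -0.046 to 0.23 in Lamb1, -0.45 to 0.24 in Matn2, -0.78 to 0.084 in Prelp, -0.48 to 1.304 in Sparcl1, -0.36 to 0.73 in Spp1, -0.32 to 0.69 in Tgfbi, -0.17 to 0.080 in Thbs3 and -0.25 to 0.68 in Vcan.

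The replicate numbers did not pair the libraries throughout. Deviations from the group means correlated at 0.07, 0.43 and 0.03 for numbers 1, 2 and 3. The replicate 2 libraries correlated best with each other, while those numbered 1 and 3 did not correlate best with their own number. With the replicate block, 636 genes were lower and 1001 higher at an unadjusted p of 0.05 over all genes, beside 458 and 723 without it, and 0 passed the adjusted threshold.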
